A study of Mus musculus with 35 samples.

Results

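The genes described here are 38 genes of protein folding and stress in the endoplasmic reticulum (ER), taken by name from a table of 27012 mouse genes after their Ensembl identifiers were matched to symbols. All 38 were found. They are 11 chaperones and co-chaperones of the ER lumen, 4 protein disulfide isomerases, 5 stress sensors and transcription factors, 9 genes of ER-associated degradation, 4 genes of protein translocation and export, and 5 genes downstream of the kinase PERK (the ATF4 branch). Of these, 37 had a mean normalized count of at least 10 over all libraries and were tested. The exception was Derl3, which codes for a derlin of ER-associated degradation and had group means of 0.608 to 1.81.

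RNA with poly(A) tails from the heart apex was sequenced on day 3 after TAC, in which a constricted aorta forces the ventricle to pump against higher pressure, or after sham surgery. Mice were of a mixed C57Bl/6/FVB background and 6 weeks old. WT mice carried a floxed Irs2 (IRS2-flox) and no Cre. IRS1KO mice carried alphaMHC-Cre with a floxed Irs1, and IRS2KO mice carried alphaMHC-Cre with a floxed Irs2. Irs1 and Irs2 code for adaptor proteins of the insulin and IGF receptors, and the alphaMHC promoter drives Cre in cardiomyocytes, so the other cells of the heart keep the floxed gene. No group carried Cre alone, so in both deletion groups effects of Cre cannot be told apart from those of the deletion. None carried floxed Irs1 without Cre, so in IRS1KO effects of the floxed background cannot be told apart either. Each group had 6 libraries except WT TAC, which had 5 (replicates 1, 2, 3, 5 and 6). The labels do not say that libraries came from separate mice, so p-values here reflect library-to-library spread, which may be technical.

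The ER folds secreted and membrane proteins with the help of lumenal chaperones and of enzymes that form disulfide bonds. When unfolded proteins build up, 3 sensors in the ER membrane signal to the nucleus: ATF6, IRE1 (Ern1), which splices Xbp1 mRNA, and PERK (Eif2ak3), which slows translation and favours that of ATF4. Their targets include chaperones, the degradation machinery that removes misfolded proteins, and stress genes such as Ddit3, which codes for CHOP. In the pressure-loaded heart, cardiomyocytes, fibroblasts and immune cells all make proteins that pass through the ER.

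Total reads in genes were 11707111 to 14609467 per library. The study's targeted gene Irs1 was the check of the labels: it was 233 ± 52.5 (SD, n = 6) in WT sham and 25.9 ± 15.1 (n = 6) in IRS1KO sham (log2 fold change -3.71, limma adjusted p = 0.000431). Irs1 was 0 in replicate 1 of IRS1KO sham and of IRS1KO TAC, and 16.7 to 80.3 in the other IRS1KO libraries. The reason was not tested. Irs2 was 123 ± 14.4 in IRS2KO sham and 217 ± 174 in WT sham (adjusted p = 1), and 121 ± 41.2 and 239 ± 68.6 after TAC (adjusted p = 0.695), so its loss did not pass the test. The summed level of 10 cardiomyocyte markers ranged from 1013050 to 1133400 in WT sham and from 594976 to 995141 in WT TAC, with 9 of 10 lower. That of 10 fibroblast markers went from a range of 12573 to 14542 to one of 51679 to 114299 (8 of 10 higher), and that of 12 macrophage and monocyte markers from 3308 to 4080 to 8556 to 24158 (12 of 12 higher). The ranges in IRS1KO TAC were 483519 to 842604, 61549 to 147830 and 8971 to 21174, and in IRS2KO TAC 512028 to 1021780, 42786 to 148981 and 6879 to 21684. Of 10 endothelial markers, 7 were lower after TAC in WT, 10 in IRS1KO and 8 in IRS2KO. The mitochondrial share of reads was 29.9 ± 0.513% (SD, n = 6) in WT sham and 23.4 ± 2.18% (n = 5) in WT TAC, 28.6 ± 1.23% and 19.5 ± 3.22% in IRS1KO, and 30.4 ± 0.749% and 21.1 ± 4.91% in IRS2KO (n = 6 each). Those of B cells and of plasma cells, which are rich in ER, summed to between 30.9 and 76.3 in sham libraries and between 25.7 and 81.0 in TAC libraries. No marker of these lists was at 0 in every library of a group.

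Promoter sequences were taken from RefSeq (GRCm38.p6, 250 bases before to 50 after each start), which listed 33 of the 38 members. Hyou1, Manf, Atf6, Derl1 and Sec61a1 had no entry. Both strands were searched for 4 motifs known from this response. The ER stress response element (ERSE, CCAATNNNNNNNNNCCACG) was found in 9 of the 33 listed members (27.3%) and in 0.119% of all 32851 promoters. Members were counted once per gene and the background once per promoter, so these shares are in unlike units. The related ERSE-II (ATTGG, any base, then CCACG) was found in 2 members, Herpud1 and Dnajb11, and in 0.0365% of all promoters. The core of the unfolded protein response element (TGACGTGG) was in Sec24d and in 0.676% of promoters, and the amino acid response element bound by ATF4 and CHOP (CARE, TGATGNAA) was in Chac1, Trib3 and Herpud1 and in 3.97% of promoters. The stretches below are shown because they carry these motifs in members with different results in the main test after TAC. Capitals mark the fixed bases of a motif on either strand.
Hspa5: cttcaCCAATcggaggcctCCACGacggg
Calr: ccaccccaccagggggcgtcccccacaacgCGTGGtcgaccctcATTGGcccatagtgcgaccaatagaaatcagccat
Canx: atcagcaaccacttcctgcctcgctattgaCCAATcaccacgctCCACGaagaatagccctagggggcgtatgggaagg
Creld2: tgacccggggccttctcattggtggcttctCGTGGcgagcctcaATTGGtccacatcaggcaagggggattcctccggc
Pdia6: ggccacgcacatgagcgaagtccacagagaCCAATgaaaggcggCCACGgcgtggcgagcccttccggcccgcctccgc
Herpud1: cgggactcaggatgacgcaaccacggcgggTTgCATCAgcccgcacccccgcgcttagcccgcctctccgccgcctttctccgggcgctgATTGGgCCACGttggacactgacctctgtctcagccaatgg
Chac1: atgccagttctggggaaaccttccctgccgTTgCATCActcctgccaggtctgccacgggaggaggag

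In GRCm38 the Hspa5 stretch lies at chr2:34772020-34772048 on the plus strand, Calr at chr8:84847045-84847123 on the minus strand and Canx at chr11:50325770-50325848 on the minus strand. Creld2 lies at chr15:88819490-88819568, Pdia6 at chr12:17266461-17266539, Herpud1 at chr8:94386287-94386417 and Chac1 at chr2:119351019-119351086, all on the plus strand. These sequences end upstream of the RefSeq start of each gene. Hsp90b1, Dnajc3, Syvn1 and Derl3 also held ERSE, and Hsp90b1 held it at 2 places. Herpud1 was the one member with motifs of both kinds, ERSE-II and CARE.

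TAC raised most of these genes in WT hearts. Of the 37 members tested, 26 rose and 3 fell (70.3% and 8.11%), where 28.3% of all 13695 genes tested rose and 26.6% fell, 54.9% in either direction (limma, Benjamini-Hochberg adjusted p under 0.05). The median log2 fold change of the members was 0.49, and that of all genes was -0.01. In 14 members every TAC library was above every sham library, against 17.2% of all genes. In 1, Herpud1, every TAC library was below, against 14.3%. Scaling each library to the same total raised the median of all genes by 0.26 (log2). The members then counted 28 rises and 2 falls. Of the genes called in that setting 79.9% were rises, against 51.6% in the main fit. The share of all genes tested that rose or fell in that setting is not given here. These 2 counts are therefore not read as a result about the members. In bulk RNA a change in the number of cells of a type cannot be told apart from a change in RNA per cell, and the part of the marker shifts and of the lower mitochondrial share in these results and in the scaling was not tested.

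**Figure D1:**
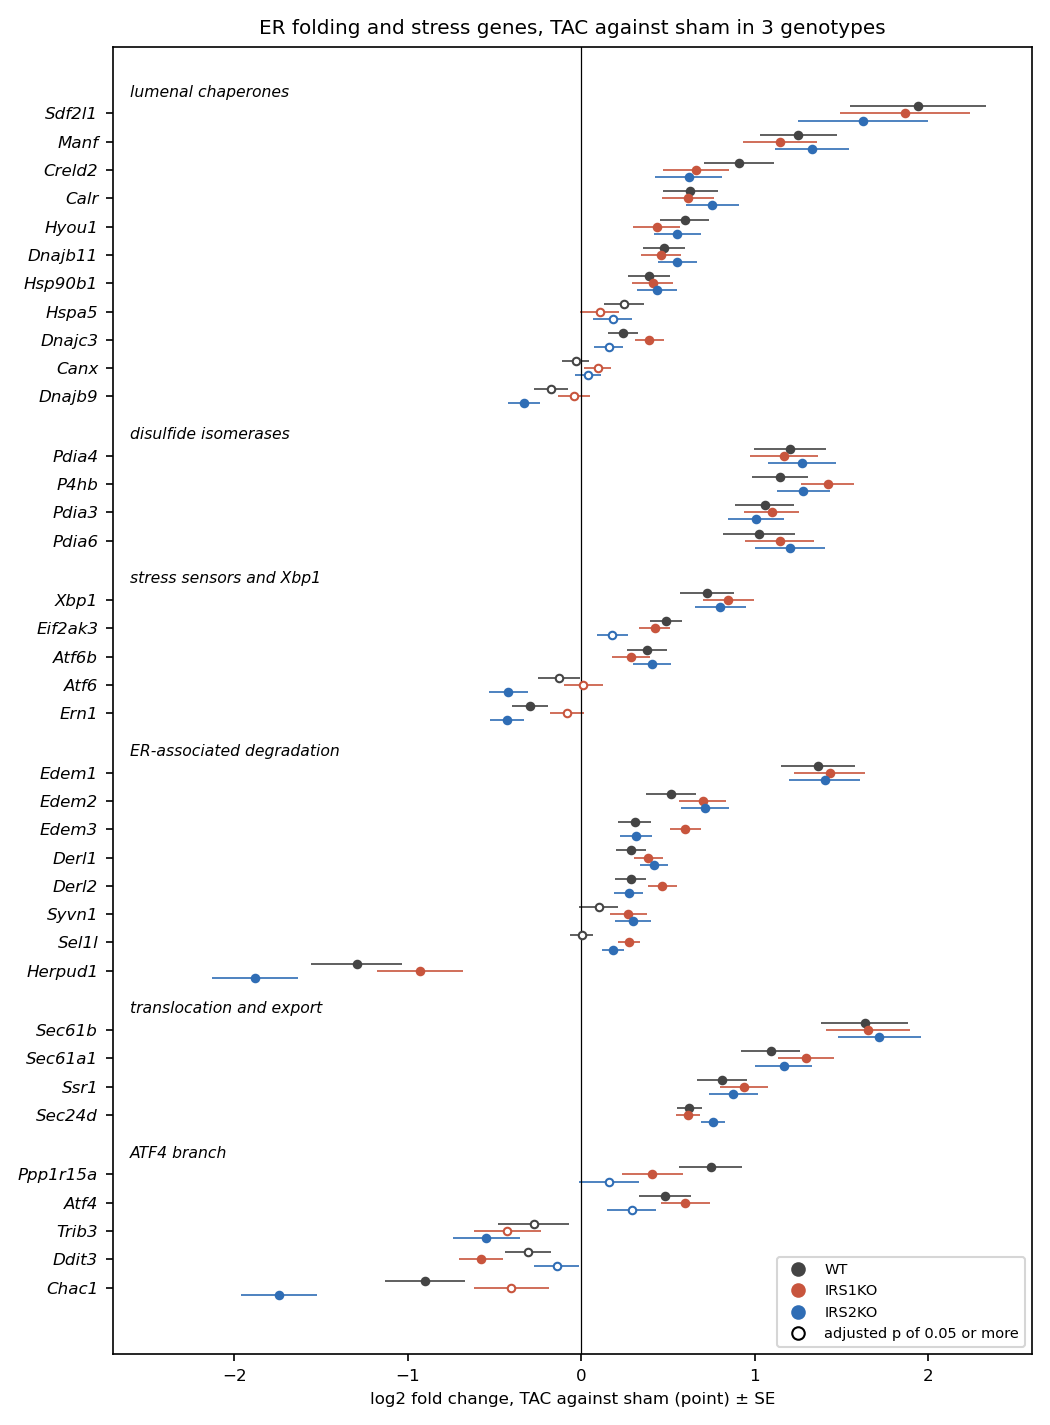
Log2 fold change of each member, TAC against sham, with its standard error (bars), in WT (grey), IRS1KO (red) and IRS2KO (blue). Filled points passed the adjusted p threshold of 0.05. The disulfide isomerases and translocation genes lie right of 0 in all 3 genotypes, and Herpud1 lies left of 0 in all 3.

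The 4 protein disulfide isomerases, which form and rearrange disulfide bonds in the ER, all rose, by 2.11-fold to 2.44-fold. P4hb, which is also the beta subunit of the prolyl 4-hydroxylase that modifies collagen, was 2529 to 2961 (median 2855) in WT sham. It was 7201, 4155, 7135, 6704 and 6290 in the 5 WT TAC libraries, a mean of 6297 against 2790 (log2 fold change 1.15, SE 0.16, adjusted p = 8.65e-07). Every TAC library was above every sham library, with replicate 2 the lowest. Pdia4 rose from 269.7 ± 15.9 to 657 ± 229 (2.44-fold), Pdia3 from 1357 ± 120.0 to 2920 ± 820.3 (2.15-fold) and Pdia6 from 796 ± 91.8 to 1683 ± 498 (2.11-fold). In each of these 3 as well, the groups did not overlap.

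Among the chaperones of the lumen, 8 of 11 rose, none fell by the test and 3 did not pass it. The largest rise belonged to Sdf2l1, a partner of the BiP chaperone system. Its WT sham values were 8.95 to 27.4 (median 20.0), and its WT TAC values were 126, 29.8, 96.4, 128 and 40.4. The groups did not overlap, and the ratio of means was 4.41 (log2 fold change 1.94, SE 0.39, adjusted p = 0.000142), from a low sham level of 19.0. Manf, a secreted ER stress factor, rose from 171 to 435 (2.55-fold, adjusted p = 2.98e-05). Creld2, another ER-resident stress protein, rose from 83.4 to 171 (2.05-fold), but TAC replicate 2, at 78.7, lay within the sham range. Calr, the calcium-binding lectin chaperone calreticulin, rose from 3038 to 4790 (1.58-fold). Hyou1, a nucleotide exchange factor for BiP, rose 1.57-fold. Dnajb11, a BiP co-chaperone, rose 1.41-fold and Hsp90b1, the ER form of HSP90 (GRP94), rose 1.33-fold. Dnajc3, an inhibitor of PERK that also serves BiP, rose 1.19-fold (adjusted p = 0.0208), a call lost without TAC replicate 1, 3 or 5 (adjusted p = 0.0651, 0.0749 and 0.063).

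Hspa5, which codes for BiP, the most studied marker of ER stress, did not pass the test in any genotype. Its WT sham values ran from 4951 to 6974 (median 5723), and its WT TAC values were 8562, 5994, 6777, 8600 and 5324. Of the 5 TAC libraries, 2 were above all sham libraries and 3 lay within their range. The mean went from 5871 to 7052 (log2 fold change 0.25, SE 0.12, 95% interval 0.01 to 0.48, adjusted p = 0.0709). The call turned on the method: the adjusted p was 0.0499 with edgeR, 0.0403 with DESeq2, 0.0016 with the same total per library, and 0.0359, 0.0365 and 0.0151 without sham replicate 1, TAC replicate 2 or TAC replicate 6. In IRS1KO it went from 5913 to 6341 (adjusted p = 0.407) and in IRS2KO from 5667 to 6464 (adjusted p = 0.152), and the same total per library made both pass (0.00405 and 0.000505). Canx, the membrane-bound lectin chaperone calnexin, was 3620 ± 324 in WT sham and 3551 ± 451 in WT TAC (log2 difference -0.03, 95% interval -0.19 to 0.13). Canx passed in no genotype, though scaling to the same total gave log2 rises of 0.40 in IRS1KO and 0.38 in IRS2KO that did. Dnajb9, a BiP co-chaperone that is a known target of XBP1, was 537 in WT sham and 476 in WT TAC (adjusted p = 0.133).

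**Figure D2:**
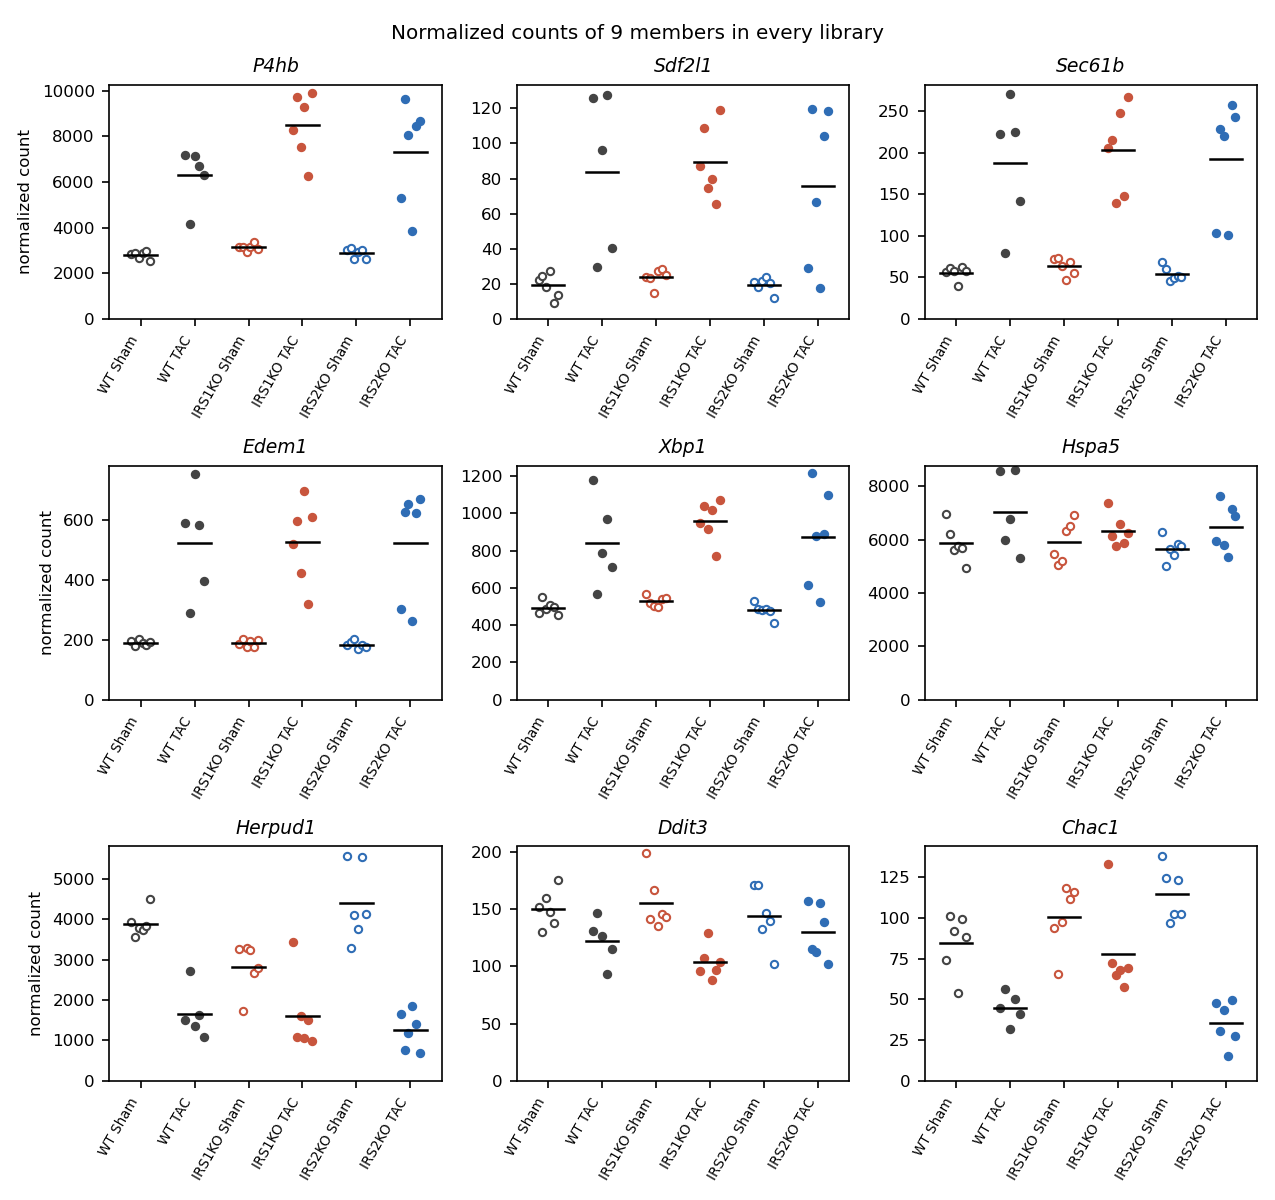
Normalized count of 9 members in every library (points; open for sham, filled for TAC) with group means (bars), on linear axes from 0. P4hb and Edem1 separate sham from TAC in every genotype, Hspa5 does not, and Herpud1 is below its own sham range in every TAC library but IRS1KO TAC replicate 1.

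The 3 stress sensors and their relatives did not move together. Xbp1, the transcription factor whose mRNA IRE1 splices, was 456 to 551 (median 491) in WT sham. It was 1177, 566, 789, 967 and 711 in WT TAC, all above sham, a 1.71-fold rise (log2 fold change 0.73, SE 0.15, adjusted p = 0.000238). Counts per gene do not separate spliced from unspliced Xbp1. Eif2ak3, the PERK kinase, rose from 119.7 to 169 (1.41-fold, adjusted p = 5.18e-05), and Atf6b, a relative of ATF6, rose from 200.3 to 264 (1.32-fold, adjusted p = 0.00614). Ern1, the IRE1 sensor, fell from 264 to 216 (log2 fold change -0.29, SE 0.10, adjusted p = 0.0173). That call was lost without TAC replicate 1 (adjusted p = 0.0723) and with the same total per library (0.807). Atf6 was 2262 in WT sham and 2076 in WT TAC (adjusted p = 0.375).

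In ER-associated degradation 5 of 8 tested genes rose and 1 fell. Edem1, a lectin that hands misfolded glycoproteins to the degradation machinery, was 180 to 202 (median 191) in WT sham. It was 589, 288, 751, 580 and 395 in WT TAC, all above sham, a 2.73-fold rise (log2 fold change 1.37, SE 0.21, adjusted p = 4.63e-06). Its relatives Edem2 and Edem3 rose by 1.47-fold and 1.24-fold. Derl1 and Derl2, membrane proteins of the export channel, each rose 1.23-fold. Sel1l and Syvn1, the core of the ubiquitin ligase complex, did not pass (990.3 in sham against 995 after TAC, adjusted p = 0.964, and 279 against 302, adjusted p = 0.45).

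Herpud1, a stress-induced ER membrane protein that binds this ligase complex, moved the other way. Its WT sham values were 3552 to 4497 (median 3810), and its WT TAC values were 1512, 2715, 1350, 1628 and 1095. All 5 were below every sham library, and the mean fell from 3888 to 1660, 2.34-fold lower (log2 fold change -1.29, SE 0.26, adjusted p = 0.000144). TAC replicate 2 fell least. With the same total per library it fell by 1.04 on the log2 scale (adjusted p = 0.000285).

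The 4 translocation and export genes all rose. Sec61b, a subunit of the channel through which new proteins enter the ER, was 39.0 to 62.7 (median 57.5) in WT sham and 222, 79.7, 270, 225 and 142 in WT TAC. The groups did not overlap (3.38-fold, log2 fold change 1.63, SE 0.25, adjusted p = 3.73e-06). Sec61a1, the channel itself, rose from 357 to 782 (2.19-fold) and Ssr1, of the translocon-associated complex, from 666 to 1203 (1.81-fold). Sec24d, a cargo adaptor of the COPII coat, rose from 567.6 to 876 (1.54-fold, SE 0.07 on the log2 scale), with the smallest adjusted p of any member in WT (3.07e-08).

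The ATF4 branch split. Atf4, its transcription factor, was 668 to 774 (median 734) in WT sham and 1587, 764, 878, 1149 and 939 in WT TAC, with 4 of 5 above sham (1.45-fold, adjusted p = 0.00726). Without TAC replicate 1 the adjusted p was 0.054. Ppp1r15a (GADD34), which restores translation by dephosphorylating eIF2alpha, rose from 286 to 490.5 (1.71-fold, adjusted p = 0.00104), and the groups did not overlap. Chac1, a glutathione-degrading enzyme and known ATF4 target, fell: it was 53.8 to 101 (median 90.02) in sham and 44.9, 56.6, 31.5, 50.1 and 41.3 after TAC, 1.89-fold lower (log2 fold change -0.90, SE 0.23, adjusted p = 0.00153). In 4 of the 5 TAC libraries Chac1 was below all sham libraries. Ddit3, which codes for CHOP, went from 150 to 122 (log2 fold change -0.30, SE 0.13, adjusted p = 0.0534), and passed in the fit with only these groups (0.0429) and without any of 8 single libraries, among them WT sham replicate 2 (0.0392) and WT TAC replicate 2 (0.023). Trib3, a pseudokinase induced by CHOP, went from 33.7 to 28.3 (adjusted p = 0.26). In GRCm38 the exons of Ddit3 share 4.0% of their length with Mars on the other strand and 6.1% with a second gene model of the same name. The use of strand in the authors' counting is not stated, so reads there cannot be assigned to 1 gene. The same limit holds for other members that share exon length with a gene on the other strand. Among them are Hsp90b1 (10.3%), Sec61a1 (8.2%), Eif2ak3 (8.0%) and Manf (4.1%, with Dcaf1).

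Most members also rose in the hearts of the deletion mice. In IRS1KO 28 of 37 members rose and 2 fell (75.7% and 5.41%), against 32.4% and 31.7% of all genes (64.1% in either direction), with a member median of 0.46. In 22 members every TAC library was above every sham library, against 20.5% of all genes, and in Ddit3 every one was below, against 16.7%. In IRS2KO 24 rose and 6 fell (64.9% and 16.2%), against 31.3% and 31.1% (62.4% in either direction), with a member median of 0.42, and 12 members were above without overlap (15.7% of all genes) and 2, Herpud1 and Chac1, below (13.6%). With the same total per library, which moved the median of all genes by 0.31 and 0.34, the members counted 32 rises and 1 fall in IRS1KO and 30 and 2 in IRS2KO. Of the genes called in that setting, 77% and 79.9% were rises, against 50.6% and 50.2% in the main fit. The share of all genes tested is again not given for that setting, so these counts are not read as a result about the members. The 3 TAC comparisons use different libraries and share the fit's estimate of the spread. In the main fit 22 members rose in all 3 genotypes, 1 (Herpud1) fell in all 3, and 2 (Hspa5 and Canx) passed in none. The share of all genes that did so in all 3 is not given here. These joint counts are therefore not read as a result about the members.

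**Figure D3:**
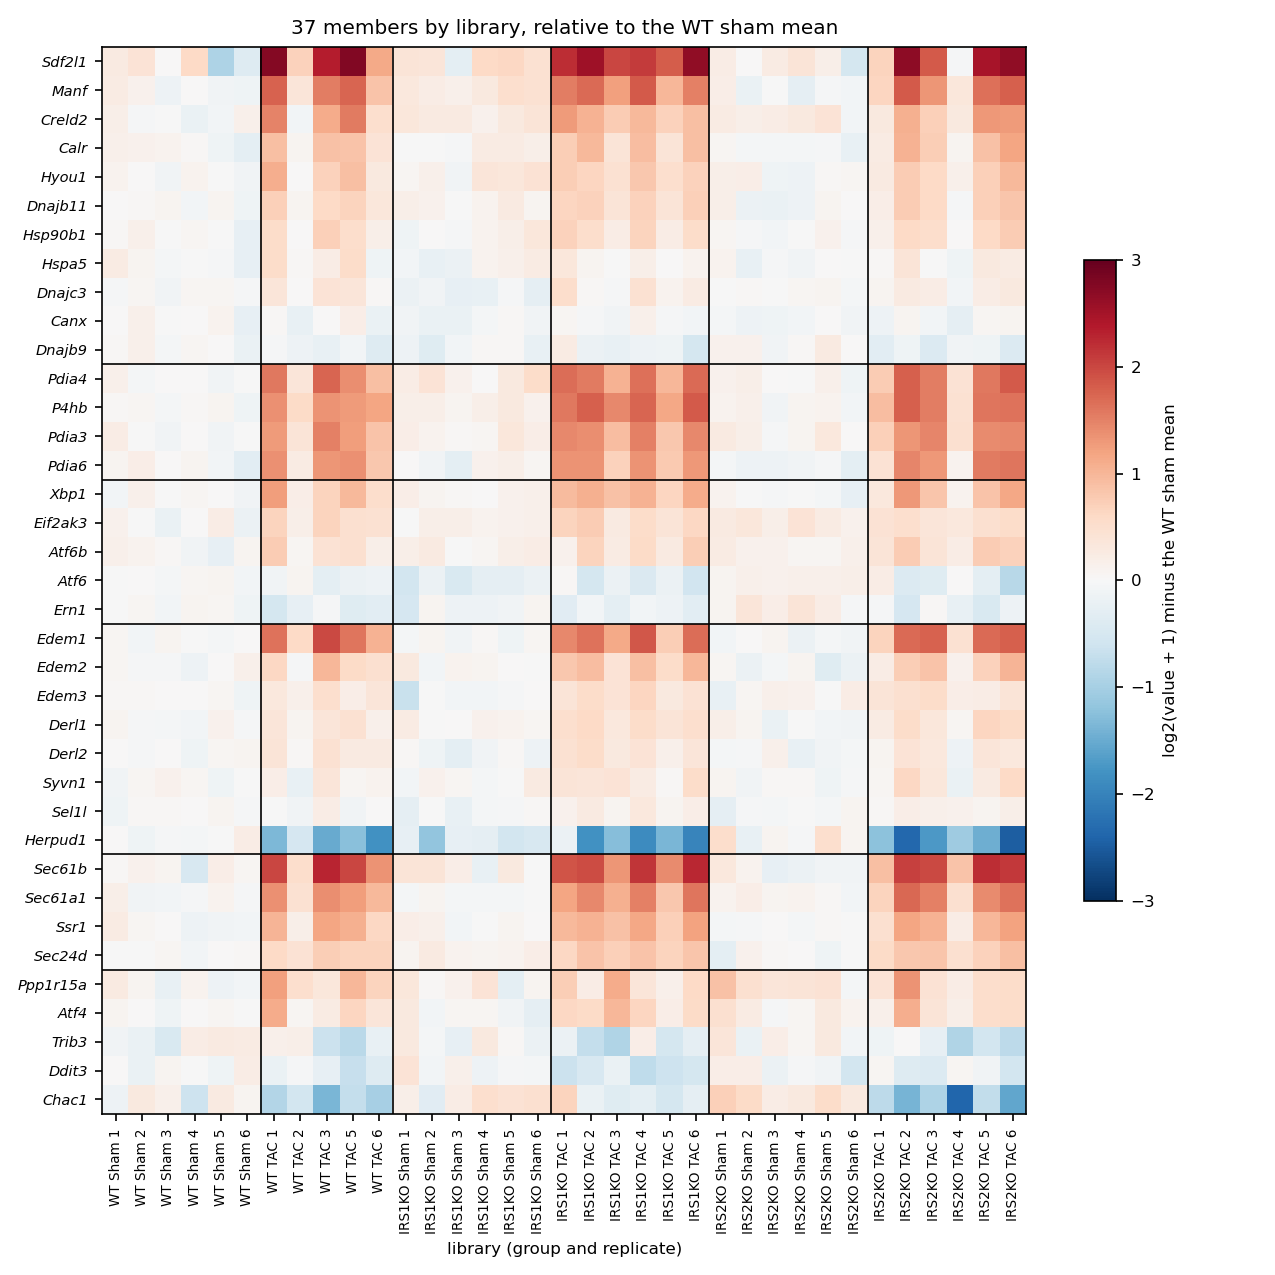
Log2(value + 1) of 37 members in each of 35 libraries, minus the WT sham mean of that gene (red higher, blue lower; columns by group and replicate, rows by role). WT TAC replicate 2 and IRS2KO TAC replicates 1 and 4 are paler than the other libraries of their groups.

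Among the rises of the deletion hearts, P4hb was 6241 to 9906 (median 8789) in IRS1KO TAC against 2940 to 3387 in sham (2.71-fold, adjusted p = 4.22e-09). In IRS2KO TAC it was 3854 to 9629 (median 8252) against 2601 to 3105 (2.54-fold, adjusted p = 4.02e-08). Neither pair of groups overlapped. Sdf2l1 rose 3.77-fold in IRS1KO and 3.91-fold in IRS2KO, Edem1 2.79-fold and 2.84-fold, and Sec61b 3.24-fold and 3.55-fold. Sel1l and Syvn1, not called in WT, passed in IRS1KO (1.21-fold each, adjusted p = 0.000376 and 0.0254) and in IRS2KO (1.13-fold and 1.25-fold, adjusted p = 0.0132 and 0.0144). The difference of these responses from WT did not pass for Sel1l (adjusted p = 0.369 and 0.951) or Syvn1 (0.746 and 0.954). The Syvn1 calls and the Sel1l call in IRS2KO were lost when single libraries were left out: Syvn1 in IRS1KO without sham replicate 1 or 4 or TAC replicate 6 (0.0547, 0.0532 and 0.0733), Syvn1 in IRS2KO without TAC replicate 2 or 6 (0.0585 and 0.0575), and Sel1l in IRS2KO without sham replicate 1 (0.0526). Atf6b in IRS1KO (1.24-fold, adjusted p = 0.0217) was lost without sham replicate 3 or TAC replicate 2 or 6 (0.054, 0.0638 and 0.0756). Ppp1r15a in IRS1KO (1.35-fold, adjusted p = 0.0382) was lost without any of 7 single libraries: sham replicate 2, 3, 5 or 6 (0.0635, 0.0513, 0.106 and 0.0564) or TAC replicate 1, 3 or 6 (0.0767, 0.134 and 0.0625).

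Herpud1 in IRS2KO was 3299.6 to 5559.5 (median 4119.5) in sham and 698 to 1842 (median 1284) after TAC, 3.52-fold lower with no overlap (log2 fold change -1.88, SE 0.25, adjusted p = 2.25e-07). In IRS1KO it was 1717 to 3287 (median 3014) in sham and 977 to 3444 (median 1300) after TAC, 1.75-fold lower (log2 fold change -0.93, SE 0.25, adjusted p = 0.00173). In IRS1KO TAC, 5 of 6 libraries were below all sham libraries, and replicate 1, at 3444, was above all of them. Chac1 in IRS2KO was 96.6 to 138 (median 113) in sham and 15.3 to 49.3 (median 37.1) after TAC, 3.21-fold lower with no overlap (log2 fold change -1.74, SE 0.22, adjusted p = 8.31e-08). In IRS1KO Chac1 was 65.9 to 118 (median 104.6) in sham and 57.5 to 133 (median 68.7) after TAC (log2 fold change -0.40, adjusted p = 0.107). Without IRS1KO TAC replicate 1 it passed (-0.57, adjusted p = 0.0202), as it did without sham replicate 2 (0.0438).

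The other falls were smaller. Ddit3 fell in IRS1KO from 155 to 104 (log2 fold change -0.58, SE 0.13, adjusted p = 0.000236), where no TAC library reached the sham range, and not by the test in IRS2KO (144 in sham against 130.3 after TAC, adjusted p = 0.344). In IRS2KO, Ern1 (306 to 228, adjusted p = 0.000422), Atf6 (2485 to 1907, adjusted p = 0.0019), Dnajb9 (567 to 451, adjusted p = 0.00275) and Trib3 (36.1 to 24.9, adjusted p = 0.0153) fell. With the same total per library none of these 4, nor Ddit3 in IRS1KO (adjusted p = 0.0546), passed as a fall. Trib3 in IRS1KO was 34.1 in sham and 25.7 after TAC (adjusted p = 0.0558) and passed without WT TAC replicate 5 (0.0477), IRS1KO sham replicate 3 or 6 (0.0437 and 0.0488) or IRS1KO TAC replicate 1 or 4 (0.0468 and 0.0174).

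Of the members that rose in WT, 4 did not pass in IRS2KO: Ppp1r15a (388 in sham against 442 after TAC, adjusted p = 0.424), Dnajc3 (691 against 775, adjusted p = 0.0978), Atf4 (842 against 1048, adjusted p = 0.076) and Eif2ak3 (143 against 162, adjusted p = 0.0721). Their responses in IRS2KO and WT did not differ by the adjusted test. For Ppp1r15a and Eif2ak3 the unadjusted limma p of that difference was under 0.05. In sham hearts as well, these 2 genes were at an unadjusted p under 0.05 between IRS2KO and WT, with the higher mean in IRS2KO. All 4 passed with the same total per library (0.0181, 0.000304, 0.00131 and 0.000261). Atf4 also passed without WT TAC replicate 1 (0.0455), IRS2KO sham replicate 1 (0.0419) or IRS2KO TAC replicate 1 or 4 (0.0357 and 0.0353), Dnajc3 without IRS2KO TAC replicate 4 (0.0274) and Eif2ak3 without IRS2KO sham replicate 4 (0.0451).

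Few of these genes differed between the genotype groups by the main test. In sham hearts no member differed between IRS1KO and WT by limma, edgeR or DESeq2 (4.65% of all genes did by limma), with 2 at an unadjusted p under 0.05, Atf6 and Sec24d. Sec24d was higher in IRS1KO without overlap (2.34% of all genes were), and Atf6 and Herpud1 were lower without overlap (3.45%). None differed between IRS2KO and WT by any of the 3 tools (0% of all genes by limma), with 4 at an unadjusted p under 0.05, and Atf6 was higher without overlap (0.438% of all genes were). Between IRS1KO and IRS2KO sham, 2 members were lower in IRS1KO and none higher (8.3% of all genes were called, 4.64% as lower), and 7 were at an unadjusted p under 0.05. Atf6 was 1533 to 2008 in IRS1KO and 2389 to 2536 in IRS2KO, with no overlap (4.72% of all genes were lower in this way; log2 fold change -0.46, SE 0.11, adjusted p = 0.00855). Ern1 was 243 against 306 (log2 fold change -0.33, SE 0.10, adjusted p = 0.0303), a call lost without IRS1KO sham replicate 1, 3 or 4 (0.103, 0.052 and 0.0561) or IRS2KO sham replicate 2, 4 or 5 (0.074, 0.0807 and 0.0568). Herpud1 was 1717 to 3287 in IRS1KO and 3299.6 to 5559.5 in IRS2KO, also with no overlap, and did not pass (log2 fold change -0.65, SE 0.25, adjusted p = 0.112), while the fit with only these 2 groups gave an adjusted p of 0.0308. The fit with only the 2 groups of each contrast called 4 members between IRS1KO and WT sham, Atf6, Herpud1, Manf and Pdia4, and 5 between IRS1KO and IRS2KO sham. The share of all genes called in these fits is not given here, so whether the members exceed it cannot be told.

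After TAC no member passed limma between IRS1KO and WT (4.7% of all genes did), with 4 at an unadjusted p under 0.05, and edgeR and DESeq2 each called 1, Chac1. None passed between IRS2KO and WT by any of the 3 tools (0% of all genes by limma), and 0 were at an unadjusted p under 0.05. Chac1 in the 2 deletion groups was the exception: at 77.6 ± 27.7 in IRS1KO TAC and 35.7 ± 13.3 in IRS2KO TAC (n = 6 each), it was 2.17-fold higher in IRS1KO with no overlap (log2 fold change 1.14, SE 0.22, adjusted p = 0.000999, where 2.36% of all genes were called, 1.08% as higher, and 0.789% were higher without overlap). The lowest IRS1KO library was 57.5 and the highest IRS2KO library 49.3. In the fit with only these 2 groups the adjusted p was 0.103. Against WT TAC (44.9), Chac1 in IRS1KO was 1.73-fold higher, also with no overlap (1.45% of all genes), with an adjusted p of 0.0534 by limma, 0.0357 by edgeR and 0.0122 by DESeq2.

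The TAC response itself was compared between genotypes as a difference of log2 fold changes. No member passed for IRS1KO minus WT (0.11% of all genes did) or for IRS2KO minus WT (0%), by limma, edgeR or DESeq2, with 2 and 3 members at an unadjusted p under 0.05. The median half-width of the 95% interval of such a difference was 0.40, without adjustment for the number of genes tested. A call needed an adjusted p under 0.05, which is stricter. The half-width is therefore not a limit of detection, and differences well above 0.40 could also be missed. For IRS1KO minus IRS2KO, Chac1 alone passed (0.409% of all genes did, 0.263% as higher), with a difference of 1.34 (SE 0.31, 95% interval 0.71 to 1.97, adjusted p = 0.0443), and 7 members were at an unadjusted p under 0.05. Chac1 did not pass without a filter (adjusted p = 0.0604), with the same total per library (0.0655) or in the fit with only the groups compared (0.0976). The call was lost without any of 18 single libraries: WT sham replicate 1, IRS1KO sham replicate 1, 2, 3 or 5, every IRS1KO TAC replicate but 5, every IRS2KO sham replicate but 2, or IRS2KO TAC replicate 2, 4 or 6. The adjusted p reached 0.0994 without IRS1KO TAC replicate 1, where the difference was 1.17. Herpud1 had a difference of 0.95 (95% interval 0.23 to 1.67, adjusted p = 0.248). These genotype comparisons share groups with each other and with the TAC comparisons.

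TAC libraries of a group differed in how far their members had moved. WT TAC replicate 2 was the lowest of its group in 25 of the 26 members that rose, with a median shift of 0.17 (log2) from the sham mean, where replicate 1 had 1.11. IRS2KO TAC replicate 4 was the lowest in 22 of 24, at 0.17, and IRS1KO TAC replicate 5 in 18 of 28, at 0.43. Across the transcriptome, WT TAC replicate 2 and IRS2KO TAC replicates 4 and 1 were also the TAC libraries nearest to sham. Their fibroblast marker sums were 51679, 42786 and 70650 and their cardiomyocyte marker sums 995141, 1021780 and 888823, and the part of these in the members' values was not tested. Without these 3 libraries, a choice made after seeing the data, the members counted 27 rises and 4 falls in WT, 28 and 3 in IRS1KO, and 28 and 6 in IRS2KO. The share of all genes called in that setting is not given here, so these counts are not read as a result about the members.

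Levels between genes were compared as normalized counts per kilobase of annotated exon, and only as group means. In WT sham Herpud1 was first with 1666, followed by Hspa5 (1388), Calr (1055) and P4hb (975.2), and the sensors Eif2ak3 and Ern1 and the chaperone Sdf2l1 were near the bottom. In WT TAC P4hb was first with 2201 and Herpud1 was at rank 7 with 712. Summed over the 4 disulfide isomerases the level per kilobase went from 1733 to 3855, and over the 11 lumenal chaperones from 4472 to 5828. Over the 9 genes of ER-associated degradation it went from 2226 to 1417, of which Herpud1 made up most in sham.

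**Figure D4:**
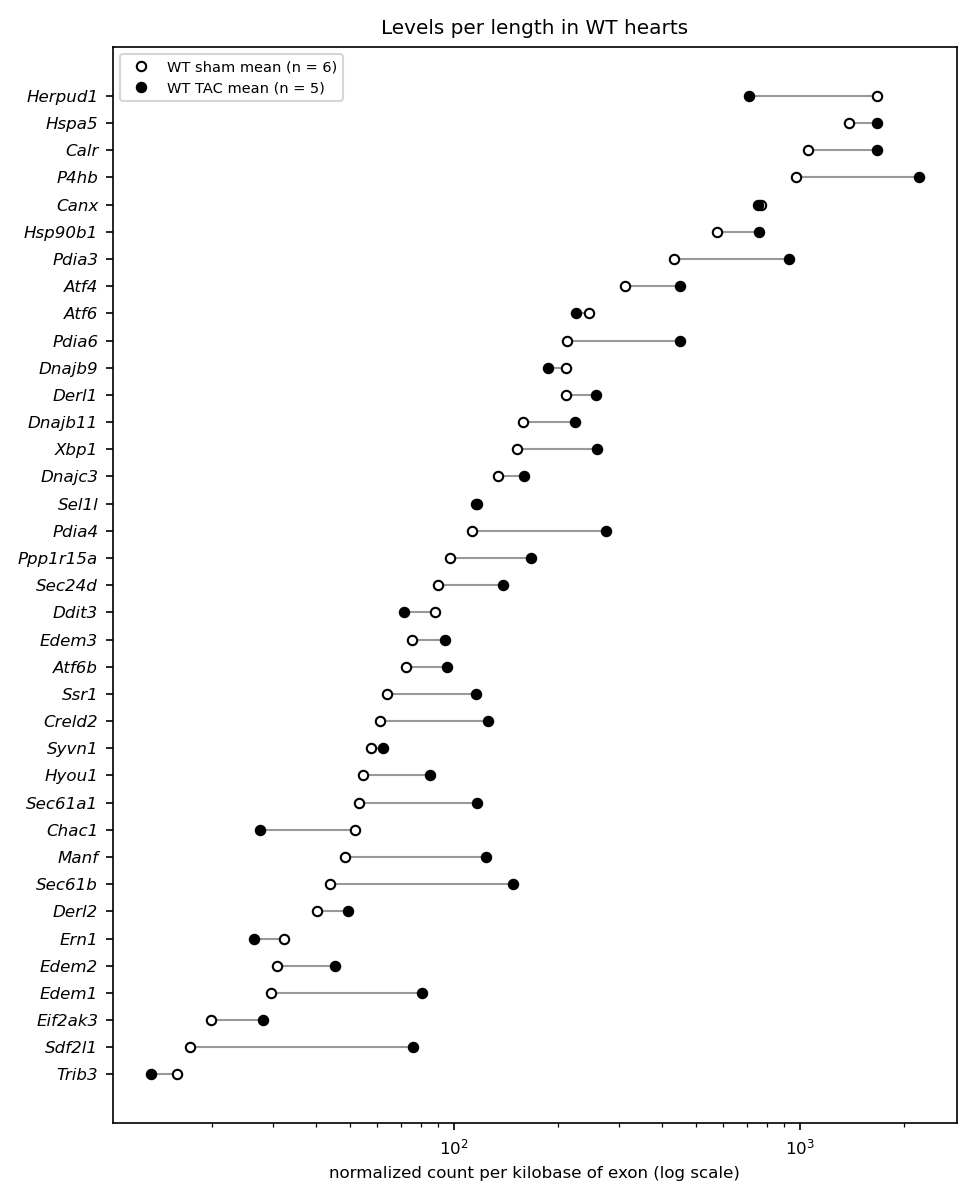
Mean normalized count per kilobase of exon in WT sham (open) and WT TAC (filled), log axis, genes in order of their sham level. P4hb went from rank 4 to rank 1, and Herpud1 from rank 1 to rank 7.

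Members with and without ERSE both rose. Of the 9 members with ERSE, 8 were tested: 5 rose and 3 did not pass in WT (median 0.32), 6 and 2 in IRS1KO (median 0.40), and 5 and 3 in IRS2KO (median 0.37), and none fell. The 24 members with a listed promoter and no exact ERSE match in the bases searched gave 17 rises and 3 falls in WT (median 0.49). They gave 18 and 2 in IRS1KO (median 0.53), and 15 and 5 in IRS2KO (median 0.36). This set includes Herpud1 and Dnajb11, which held ERSE-II, and Sec24d, which held the core of the unfolded protein response element. Of all genes, 28.3%, 32.4% and 31.3% rose in WT, IRS1KO and IRS2KO, and 26.6%, 31.7% and 31.1% fell. The median of the 24 was above that of the members with ERSE in WT and IRS1KO and close to it in IRS2KO. The difference was not tested. Hspa5 and Canx, whose stretches are printed above beside those of Calr, Creld2 and Pdia6, held the same element and did not pass the main test. As given above, the Hspa5 call turned on the method, and Canx passed in the deletion hearts with the same total per library. Differences in response between these genes were not tested. Herpud1 and Chac1, which fell furthest in WT, held the CARE. Trib3, which did not pass in WT, held it too, and Ern1, which fell in WT, did not. Atf4 rose in WT and IRS1KO, and a link between the CARE and these changes was not tested.

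Of 136 related genes chosen from the same pathways, 132 were tested, and 75 rose and 14 fell in WT, 91 and 13 in IRS1KO and 81 and 16 in IRS2KO. Of all genes tested, 28.3% rose and 26.6% fell in WT, 32.4% and 31.7% in IRS1KO, and 31.3% and 31.1% in IRS2KO. The related lists, like the members, were chosen with earlier results of these data known. Their counts beside those of all genes are therefore descriptive and not an independent test. In collagen folding and hydroxylation in the ER 13 of 14 rose in WT (median 0.89). Serpinh1, the collagen chaperone HSP47, rose from 1952 to 5789 (2.96-fold) and Fkbp14, a collagen prolyl isomerase, from 118 to 252.5 (2.15-fold). P4ha3, a prolyl hydroxylase subunit, was between 0 and 3.16 in the sham libraries (mean 0.714) and between 26.9 and 122 in the TAC libraries (mean 76.6). In translocation, signal peptide cleavage and N-glycosylation 18 of 22 rose and none fell, with Spcs3, of the signal peptidase, up 3.21-fold, and Ostc and Stt3a, of the oligosaccharyltransferase, up 2.17-fold each. Other ER folding enzymes gave 15 rises and 1 fall of 24, led by Pdia5 (3.90-fold), Fkbp11 (3.03-fold) and Txndc5 (2.35-fold), with Tmx4 lower (1.16-fold).

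Most of the other related lists held both rises and falls. COPII export gave 3 rises (Sec23b, Sec13, Sec31a) and 2 falls (Mia2, Sar1b) of 12, and other ER-associated degradation 6 rises and 5 falls of 17, where 28.3% of all genes rose and 26.6% fell. The share of rises in both lists was near that of all genes. Among other regulators 5 of 11 rose, including the ER-membrane transcription factors Creb3l1 (37.2 to 175, 4.71-fold) and Creb3 (1.73-fold), and 2 fell, Crebrf (785 to 405) and Ddrgk1. Of 10 eIF2 kinases and factors 3 rose, Eif2ak2, Eif2s1 and Ppp1r15b, a share near that of all genes, and none fell. Of 22 other targets of ATF4 and CHOP, 12 rose and 4 fell. Gdf15, a stress hormone, went from 3.24 to 77.5, and the serine and one-carbon enzymes Phgdh and Mthfd2 rose 5.04-fold and 6.18-fold, whereas Vldlr (2.22-fold), Ddit4 (1.53-fold) and Slc7a1 (1.52-fold) were lower.

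**Figure D5:**
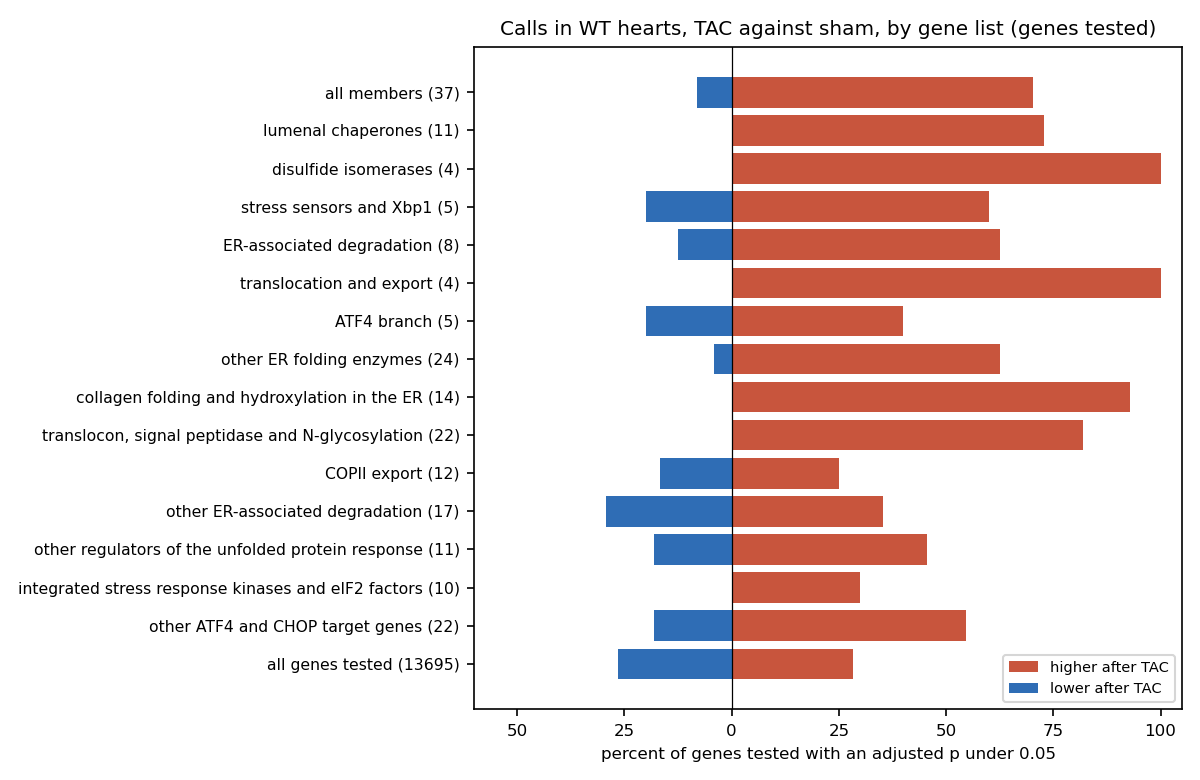
Percent of tested genes higher (red, right) or lower (blue, left) in WT TAC against WT sham at an adjusted p under 0.05, by role, by related list and over all 13695 genes tested (number tested in parentheses). All 4 disulfide isomerases and all 4 translocation and export members rose, whereas 28.3% of all genes did.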

How the data were processed

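Total RNA from heart apex was extracted with mirVana and made into TruSeq stranded mRNA libraries, per the labels' protocols. The authors deposited 1 table of normalized counts (a signal, not raw reads), with a column for each library, per the file headers. The submitters' processing notes name GRCm38, DESeq2, HTSeq 0.7.1 and HISAT2 2.0.6, without saying what each did. Each library's values were whole multiples of 1 step (100% within 0.001), which recovered its reads: 11707111 to 14609467. Symbols, coordinates and exon lengths came from GENCODE vM21.

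The main test was limma 3.58.1 in R 4.3.3 (trend, robust) on log2(value + 1), run on 13695 genes whose mean over all libraries reached 10. One model held the 6 group means, and 12 contrasts were adjusted separately by Benjamini-Hochberg, two-sided, threshold 0.05. Fold changes on this scale understate those of low genes, and folds in words are ratios of means. Other settings tried were a pseudocount of 0.5 or 5, no filter or a mean of 50, the same total per library, only the groups in a contrast, a replicate block, edgeR 4.0.16 and DESeq2 1.42.0 on recovered reads, and leaving out each library. The scripted test was checked on simulated data.

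The members and all gene lists were chosen with earlier results of these data known. Named genes were any member, Irs1, Irs2 and, in each related list, up to 3 called rises and 3 called falls, the largest in WT. No pair of libraries in a group agreed within sampling noise (lowest chi-square per degree of freedom 2.41 over 85 pairs).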

Additional observations from a re-analysis of the deposited data

Results flagged for a closer look

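Single libraries stood apart from their group in 9 of 222 groups of values, by a gap test at its 95% level. That is 4.05%, where chance flags about 5%. IRS1KO TAC replicate 1 stood apart in 2 genes, Herpud1 (3444, the others 977 to 1594) and Chac1 (133, the others 57.5 to 72.6). IRS2KO TAC replicate 2 did so in 2 genes, Atf4 (1555) and Ppp1r15a (729). Irs1 was 0 in IRS1KO TAC replicate 1, as in IRS1KO sham replicate 1. Low values stood apart for Sdf2l1 in IRS1KO sham replicate 3 (14.5), Edem3 in WT sham replicate 6 (438) and in IRS1KO sham replicate 1 (304), and Sec61b in WT sham replicate 4 (39.0). Pdia3 was high in WT sham replicate 1 (1579).

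The TAC response of Chac1 differed between IRS1KO and IRS2KO by 1.34 on the log2 scale (limma adjusted p = 0.0443). The call was lost in 18 of 35 fits that each left out 1 library (adjusted p up to 0.0994), without a filter (0.0604), with the same total per library (0.0655) and in the fit with only the groups compared (0.0976). Chac1 was higher in all 6 IRS1KO TAC libraries than in any of the 6 IRS2KO TAC libraries.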

How the results depend on the processing

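Counts of rises in each genotype stayed within 1.5 times of the value reported under every alternative run. With the same total per library, falls came to 1 in IRS1KO and 2 in IRS2KO, calls between IRS1KO and IRS2KO sham to 1, between IRS1KO and WT TAC to 1, and for the response of IRS1KO minus IRS2KO to 0. A pseudocount of 5, edgeR, DESeq2 and the replicate block each called 1 member between IRS1KO and WT TAC. Without a filter, IRS1KO against IRS2KO sham gave 1 and the response difference 0. The fit with only the groups in the contrast gave 4 (IRS1KO against WT sham), 5 (IRS1KO against IRS2KO sham), 0 (IRS1KO against IRS2KO TAC) and 0 (the response difference). Leaving out single libraries gave 2 to 4 falls in IRS1KO (4 without TAC replicate 1), 1 to 2 calls for IRS1KO against IRS2KO sham, 0 to 2 for IRS1KO against WT TAC (2 without IRS1KO TAC replicate 5 or IRS2KO TAC replicate 4) and 0 to 1 for the response difference. Without the 3 TAC libraries nearest to sham, chosen after seeing the data, IRS1KO against WT gave 1 (Atf6) in sham and 1 (Chac1) after TAC, and the response difference gave 3 (Chac1, Herpud1, Atf6). These counts are given without the share of all genes under each setting, so none is read as a result about the members. The fewer calls without a filter go with more genes tested; for the other settings the cause was not tested.

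Signs changed with the same total per library for Canx (0.23), Dnajb9 (0.084) and Atf6 (0.13) in WT, Dnajb9 (0.27) and Ern1 (0.22) in IRS1KO, and Dnajb9 (0.0065) and Ddit3 (0.19) in IRS2KO. Atf6 in IRS1KO was at -0.0012 with edgeR. Canx in WT was at 0.016 without the 3 libraries. Leaving out single libraries moved Sel1l in WT between -0.049 and 0.031, Canx in WT between -0.092 and 0.016, Atf6 in IRS1KO between -0.055 and 0.067 and Dnajb9 in IRS1KO between -0.12 and 0.031. Same-numbered sham and TAC libraries deviated together in 8 of 17 pairs (correlation over 0.1, range -0.080 to 0.21). Libraries with different numbers were not compared, so these values cannot tell whether replicate numbers pair the libraries. The replicate block also made Ddit3 in WT (adjusted p = 0.0462) and Trib3 in IRS1KO (0.0498) pass, and changed no other member's call in the TAC comparisons.

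With 5 or 6 libraries a group, small differences between genotypes were not detectable.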
